A study of Mus musculus with 12 samples.

Results

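The genes described here are 9 transcription factors and cofactors that direct red cell formation, together with Epor, the receptor for erythropoietin. They were taken from the list Gata1, Klf1, Tal1, Nfe2, Zfpm1, Lyl1, Gfi1b, Bcl11a, Ldb1 and Epor, and all 10 were found by symbol among the 21853 genes of the deposited expression table. All 10 also passed the filter on low values, which asked for 3 or more libraries with an FPKM of 1 or higher and left 10994 genes for testing. FPKM is a count of fragments taken relative to the length of the transcript and to all fragments mapped in that library, so levels of different genes can be set side by side.

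The libraries came from whole bone marrow of B6 mice collected on day 14 after total body irradiation (TBI) or at the matching time without it. There were 4 groups of 3 libraries, 12 in all. Control mice were not irradiated, and no vehicle or gavage is stated for them. TBI mice received 5 Gy of gamma rays at 0.66 Gy/min and 100 µL of olive oil by gavage as the vehicle. TBI+DEIX mice received the same irradiation and oral DEIX at 25 mg/kg once daily for 14 days. DEIX mice received DEIX without irradiation, and the route is not stated separately for them. The series title gives deinoxanthin, a carotenoid of the bacterium Deinococcus, as the compound. Ages, sexes and the number of mice per library are not stated in the labels used here. Each comparison with control therefore includes any effect of dosing, and the effects of irradiation and of vehicle cannot be told apart in TBI against control.

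GATA1 is a zinc finger factor that binds GATA sequences and switches on most red cell genes, with ZFPM1 (also called FOG-1) as its cofactor. It works in a complex in which TAL1 or the related LYL1 binds E boxes and LDB1 joins promoters to distant enhancers. KLF1 binds CACCC boxes of globin, haem and membrane genes, GFI1B and BCL11A are repressors, and NFE2 is a subunit of a factor that acts at the globin locus and in platelet formation. Erythropoietin binding to its receptor activates JAK2 and STAT5, which keeps erythroid progenitors alive. Several of these factors are not confined to red cells. GATA1, ZFPM1, TAL1, GFI1B and NFE2 also act in megakaryocytes, GATA1 in mast cells and eosinophils, BCL11A in B cells and plasmacytoid dendritic cells, and NFE2 and LYL1 transcripts occur in myeloid cells and progenitors.

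Gene positions below are from GENCODE vM21 on GRCm38. Gata1 (ENSMUSG00000031162.14) lies on chromosome X from 7959260 to 7978071 on the minus strand. Zfpm1 lies at chr8:122282141-122337251 (plus), Klf1 at chr8:84901928-84905291 (plus), Tal1 at chr4:115056426-115071755 (plus) and Lyl1 at chr8:84701457-84704715 (plus). Ldb1 lies at chr19:46031570-46045214 (minus), Gfi1b at chr2:28609450-28621982 (minus), Bcl11a at chr11:24078056-24174123 (plus) and Nfe2 at chr15:103248212-103258403 (minus). Epor lies at chr9:21958897-21963506 (minus). Zfpm1 overlaps the predicted gene Gm20388 on the same strand, Lyl1 overlaps Nfix and Ldb1 overlaps Pprc1 on the opposite strand, and Bcl11a overlaps 2 antisense genes. How fragments were assigned between overlapping genes is not given in the sources used here, so the values of these 4 genes are uncertain to that degree.

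RefSeq promoter sequences (GRCm38.p6) matched 9 of the 10 genes, with 12 start sites among them. For each start, up to 250 bases upstream were searched on both strands for 5 groups of motif letters. GATA letters (AGATAA or AGATAG, and TGATAA or TGATAG) were present in 5 of the 12 windows, against 26.5% of 32851 windows of all genes. The windows that held them belonged to Klf1, Tal1, Gfi1b, Ldb1 and Epor. CACCC letters (CCNCACCC or CCNCGCCC) were present in 8 of 12 windows, against 31.7%. E box letters (CAGCTG or CAGATG) were present only in the Epor window among the 12, against 25.5%, and STAT letters (TTCNNNGAA) in those of Gfi1b and Bcl11a, against 7.02%. TGAGTCA, the NF-E2 letters, matched 0 of 12 windows, against 4.46%. No match of one motif overlapped a match of another. These are matches of letters in short windows and describe neither binding nor a cause.

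The windows of 6 genes whose FPKM values ran close together over the libraries are shown to let their upstream sequences be compared. Each runs 5′ to 3′ on the strand of the gene, ends at the base before the RefSeq start and has GATA letters in capitals, where TTATCT and TTATCA are the reverse complements of AGATAA and TGATAA. The Klf1 window was shortened to 196 bases, ending 54 bases before the RefSeq start, because an annotated exon begins there. The Gata1 window lies inside the annotated gene span, in no annotated exon. Positions are chrX:7967911-7968160 (minus) for Gata1, chr8:122281891-122282140 (plus) for Zfpm1, chr8:84901732-84901927 (plus) for Klf1, chr4:115056176-115056425 (plus) for the upstream start of Tal1, chr2:28621983-28622232 (minus) for Gfi1b and chr9:21963577-21963826 (minus) for Epor.
Gata1: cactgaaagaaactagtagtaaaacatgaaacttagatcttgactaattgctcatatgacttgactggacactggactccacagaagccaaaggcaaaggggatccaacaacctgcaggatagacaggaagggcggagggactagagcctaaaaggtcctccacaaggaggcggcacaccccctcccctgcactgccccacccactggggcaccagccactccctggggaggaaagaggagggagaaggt
Zfpm1: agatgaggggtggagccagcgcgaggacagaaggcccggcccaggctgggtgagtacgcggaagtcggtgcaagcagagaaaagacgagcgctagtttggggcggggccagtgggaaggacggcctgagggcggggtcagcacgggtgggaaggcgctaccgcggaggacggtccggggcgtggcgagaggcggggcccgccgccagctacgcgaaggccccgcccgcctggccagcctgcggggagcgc
Klf1: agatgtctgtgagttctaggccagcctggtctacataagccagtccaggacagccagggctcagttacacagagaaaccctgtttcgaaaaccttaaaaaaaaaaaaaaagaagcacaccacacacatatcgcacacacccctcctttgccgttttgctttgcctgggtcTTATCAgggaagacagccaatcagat
Tal1: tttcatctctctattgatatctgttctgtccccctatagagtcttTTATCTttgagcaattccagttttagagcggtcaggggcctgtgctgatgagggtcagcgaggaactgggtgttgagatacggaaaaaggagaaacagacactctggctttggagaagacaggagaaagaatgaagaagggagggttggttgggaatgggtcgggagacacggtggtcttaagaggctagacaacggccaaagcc
Gfi1b: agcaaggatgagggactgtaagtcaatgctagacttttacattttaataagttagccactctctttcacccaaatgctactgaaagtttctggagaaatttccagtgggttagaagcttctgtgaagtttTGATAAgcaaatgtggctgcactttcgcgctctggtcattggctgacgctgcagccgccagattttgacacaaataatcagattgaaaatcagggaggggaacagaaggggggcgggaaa
Epor: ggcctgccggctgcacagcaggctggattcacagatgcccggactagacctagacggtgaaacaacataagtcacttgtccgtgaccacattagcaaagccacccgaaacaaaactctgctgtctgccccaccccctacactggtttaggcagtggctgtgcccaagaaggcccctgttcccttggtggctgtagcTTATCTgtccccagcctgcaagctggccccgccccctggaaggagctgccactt
Counted back from the RefSeq start, the first GATA letter stood at -80 in Klf1, -205 in Tal1, -120 in Gfi1b and -54 in Epor. The Gata1 and Zfpm1 windows held no GATA letters, and they held 1 and 4 CACCC matches.

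Before the values of single genes, the libraries themselves differed in ways that touch them. FPKM values summed to between 493683 and 848843 per library, and the total number of reads is unknown. The FPKM worth of 1 read, relative to control replicate 1, was between 0.895 and 1.894 in 10 libraries, and no clear value was found for TBI+DEIX replicate 1. Spread between replicates was taken as the SD of log2(FPKM + 1) within a group. Pooled as a root mean square over tested genes other than S100a8, S100a9 and Ngp, it was smallest in control at 0.140 and largest in TBI+DEIX at 0.418, with 0.225 for TBI and 0.236 for DEIX. The neutrophil genes S100a8, S100a9 and Ngp were listed at 0 in some libraries although their values elsewhere were among the highest, which changes the sum of those libraries. Red cell transcripts were present in every library: the summed FPKM of 5 defining erythroid genes (Hba-a1, Hbb-bs, Alas2, Slc4a1 and Tfrc) was 3170 to 5100 in control, 1670 to 7980 in TBI, 1300 to 7930 in DEIX, and 187 to 1500 in TBI+DEIX, and none of the 5 was listed at 0. In RNA from whole marrow, fewer cells of a type and less RNA per cell cannot be told apart.

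The group Gata1, Zfpm1, Klf1, Tal1, Gfi1b and Epor, 6 of the 10, had a like profile over the 12 libraries: even in control, highest in 1 TBI library, and lower in TBI+DEIX and in 2 of the 3 DEIX libraries. Bcl11a and Ldb1 had a flatter version of it, Lyl1 hardly varied and Nfe2 was lowest in control.

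**Figure D1:**
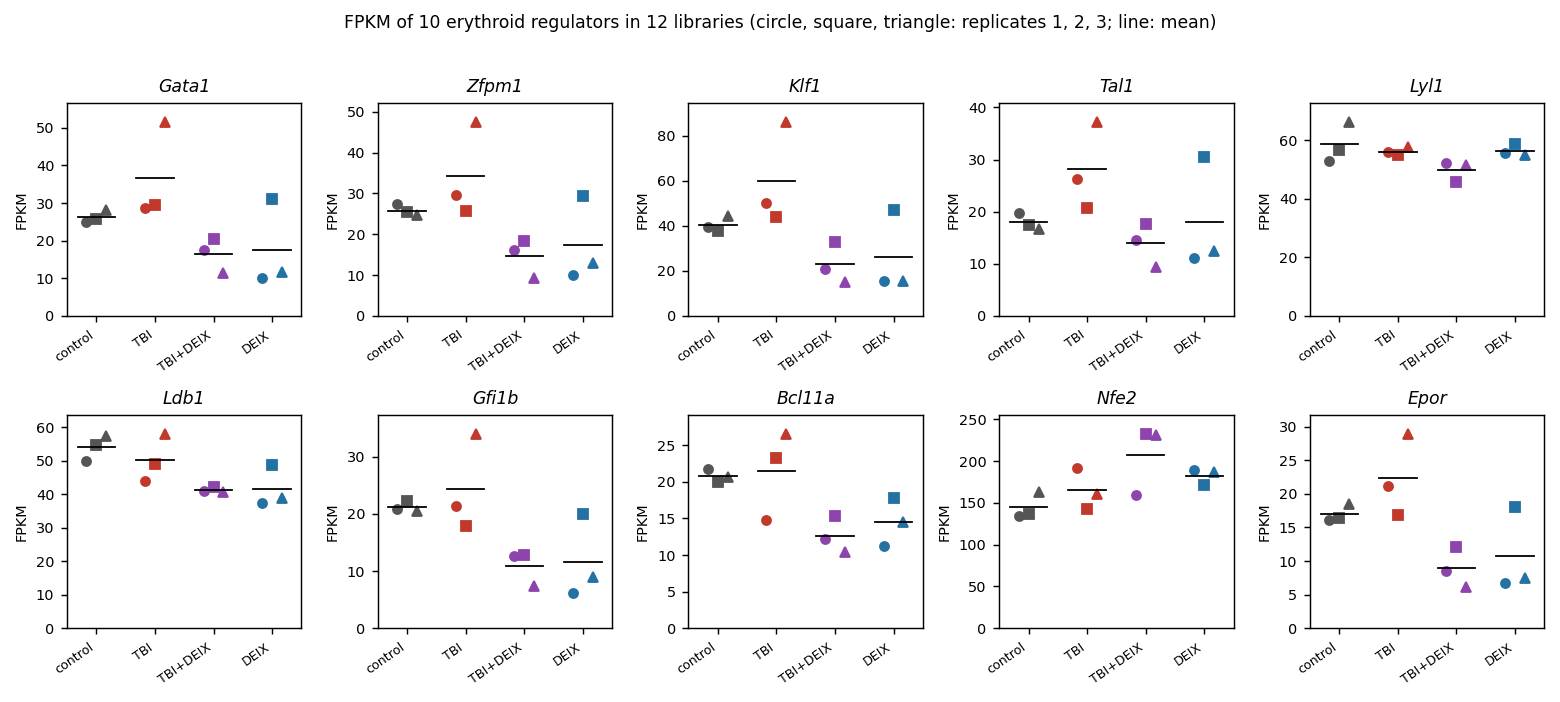
FPKM of each of the 10 regulators (vertical axis, from 0) in the 12 libraries, by group, with circle, square and triangle for replicates 1 to 3 and a line for the group mean. TBI replicate 3 is the highest library for 8 of the 10, and DEIX replicate 2 stands above the other DEIX libraries for Gata1 (31.2 against 10.2 and 11.6 FPKM) and most others.

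Gata1 was at 25.0, 25.8 and 28.1 FPKM in control replicates 1 to 3 and at 28.7, 29.5 and 51.5 FPKM in TBI replicates 1 to 3. It was at 17.7, 20.6 and 11.5 FPKM in TBI+DEIX replicates 1 to 3 and at 10.2, 31.2 and 11.6 FPKM in DEIX replicates 1 to 3. All TBI libraries lay above all control libraries, although the margin rested on less than 1 FPKM, and all TBI+DEIX libraries lay below both. The DEIX group was split, with replicate 2 above control and the other 2 libraries lower than any control library. Its cofactor gene Zfpm1 was at 27.3, 25.4 and 24.7 FPKM in control, 29.5, 25.8 and 47.5 in TBI, 10.03, 29.4 and 12.9 in DEIX, and 16.1, 18.5 and 9.28 in TBI+DEIX, in replicate order. TBI replicate 3 was again the highest library and DEIX replicate 2 the high one of its group, while the control and TBI libraries of Zfpm1 overlapped.

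Klf1 was at 39.7, 37.6 and 44.6 FPKM in control and at 50.02, 44.0 and 86.2 FPKM in TBI. Its TBI+DEIX libraries were at 20.8, 33.0 and 15.0 FPKM and its DEIX libraries at 15.7, 47.0 and 15.7 FPKM. The highest library was 5.76 times the lowest, the widest range of the 10 genes, and again TBI replicate 3 was highest while every TBI+DEIX library lay below every control and TBI library.

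Tal1, the E box binding factor of the GATA1 complex, was at 19.8, 17.4 and 16.8 FPKM in control, 26.4, 20.7 and 37.2 in TBI, 11.1, 30.5 and 12.5 in DEIX, and 14.7, 17.7 and 9.39 in TBI+DEIX. TBI libraries all lay above control, while TBI+DEIX and DEIX libraries both overlapped control. Its relative Lyl1 was at 53.1, 56.7 and 66.2 FPKM in control, 55.9, 54.9 and 57.6 in TBI, 55.7, 58.8 and 55.1 in DEIX, and 52.4, 45.8 and 51.4 in TBI+DEIX. The highest Lyl1 library was 1.45 times the lowest, against 3.96 for Tal1. Ldb1, the bridging protein of the complex, was at 50.04, 54.7 and 57.3 FPKM in control, 43.9, 48.9 and 57.9 in TBI, 37.3, 48.6 and 38.8 in DEIX, and 41.1, 42.2 and 40.7 in TBI+DEIX. Every Ldb1 value in TBI+DEIX and DEIX lay below every control value.

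Gfi1b, a repressor that GATA1 itself activates, was at 20.9, 22.3 and 20.6 FPKM in control, 21.3, 17.9 and 33.9 in TBI, 6.13, 20.0 and 8.89 in DEIX, and 12.6, 12.8 and 7.33 in TBI+DEIX. Both DEIX-treated groups lay wholly below control, DEIX replicate 2 by a small margin. Bcl11a, the repressor of fetal-type globin genes, was at 21.8, 20.0 and 20.7 FPKM in control, 14.8, 23.2 and 26.5 in TBI, 11.3, 17.8 and 14.5 in DEIX, and 12.1, 15.3 and 10.4 in TBI+DEIX. Here too both DEIX-treated groups lay below control, and TBI replicate 1 was the low library of its group.

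Nfe2 was the most abundant of the 10, with a mean of 175 FPKM over the 12 libraries against 55.3 for Lyl1, the next. It was at 135, 136 and 163 FPKM in control, 192, 143 and 161 in TBI, 190, 171 and 187 in DEIX, and 159, 232 and 231 in TBI+DEIX. Its mean was higher in both DEIX-treated groups than in control and TBI, and ran from 145 ± 16.1 (SD, n = 3) in control to 208 ± 41.7 (SD, n = 3) in TBI+DEIX. Only the DEIX group lay wholly above control, since TBI+DEIX replicate 1 lay within the control range.

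Epor, the least abundant with a mean of 14.7 FPKM, was at 16.1, 16.5 and 18.4 FPKM in control and at 21.2, 16.9 and 28.9 FPKM in TBI. It was at 8.45, 12.1 and 6.12 FPKM in TBI+DEIX and at 6.72, 18.0 and 7.52 FPKM in DEIX. Every TBI+DEIX library lay below every control and TBI library, and DEIX replicate 2 was again the exception of its group. The order of group means was TBI (22.3 ± 6.06), control (17.0 ± 1.25), DEIX (10.7 ± 6.29) and TBI+DEIX (8.90 ± 3.04 FPKM, SD, n = 3 each). The libraries of neighbouring groups in that order overlapped.

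Group differences were tested with limma on log2(FPKM + 1) in 1 model of the 4 groups, with Benjamini-Hochberg adjustment over all 10994 tested genes, and a gene was called at an adjusted p under 0.05. A log2 change is the first group minus the second on that scale. Because TBI+DEIX against TBI and TBI against control share the TBI libraries, and 3 of the comparisons share the control libraries, the changes are not independent of each other. Over all tested genes, an unadjusted p under 0.05 was reached by 18.1% in TBI against control, 27.2% in TBI+DEIX against TBI, 24.7% in DEIX against control, 41.6% in TBI+DEIX against control, 16.2% in TBI+DEIX against DEIX and 7.5% in the interaction, and counts of genes at that level below are to be set against these shares. Leaving out 1 library also moved the share of all genes called: it was 1.33% to 1.98% in DEIX against control without a control library or without DEIX replicate 1 or 3, and 18.2% to 20.9% in TBI+DEIX against control without a control library.

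**Figure D2:**
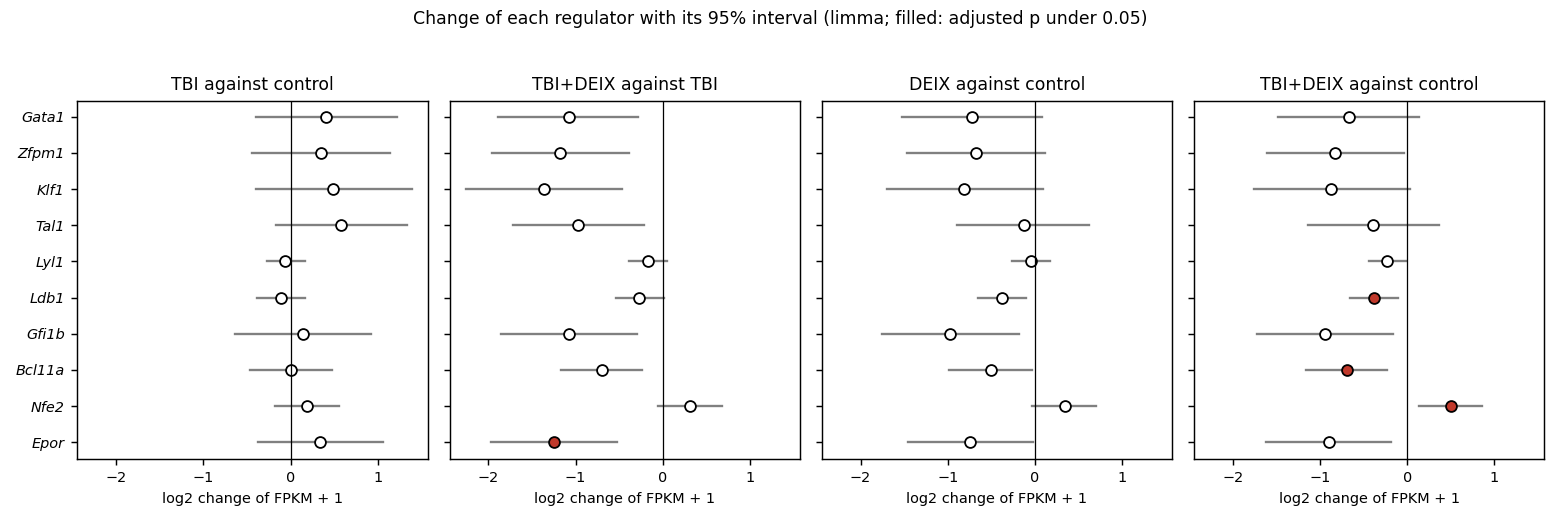
Change of each regulator on the log2(FPKM + 1) scale (horizontal axis) in 4 comparisons, with points for the limma estimate and lines for its 95% interval, filled where the adjusted p is under 0.05. The filled points are Epor in TBI+DEIX against TBI, and Nfe2, Bcl11a and Ldb1 in TBI+DEIX against control.

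TBI against control addresses what irradiation with vehicle left in the marrow after 14 days. None of the 10 regulators was called by limma, and 0 had an unadjusted p under 0.05, against 3.99% of all tested genes called. The estimates ran from -0.11 for Ldb1 to 0.58 for Tal1 (SE 0.34, adjusted p = 0.407), with a median of 0.27 against 0.05 over all tested genes. For Gata1 the change was 0.41 (95% interval -0.40 to 1.22) and for Klf1 0.49 (-0.40 to 1.39). Gata1 and Tal1 had TBI libraries wholly above control, where 22.0% of all tested genes did. On the TPM scale this held for Tal1 alone, and for 4 genes (Gata1, Klf1, Tal1 and Epor) when the sum left out S100a8, S100a9 and Ngp. The 22.0% is for FPKM, and the shares of all tested genes on these other scales were not computed. The Bcl11a estimate was 0.01 and turned to -0.01 with median-of-ratios scaling, and that of Gfi1b, 0.14, turned to -0.12 without TBI replicate 3. Array weights, which give less weight to libraries that deviate from their group, called 3 of the 10, but their estimation stopped before it converged, gave control replicate 2 a weight of 97.5 and called 7017 of the 10994 genes. The gene-by-gene method for such weights called 0 of the 10, where 38.4% of all genes were called.

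TBI+DEIX against TBI addresses what DEIX changed in irradiated mice. Epor fell by 1.25 on the log2 scale (SE 0.33, 95% interval -1.97 to -0.53, adjusted p = 0.0417 by limma) and was the 1 called gene of the 10, against 8.10% of all tested genes. The 6 others with estimates near or below -0.70 had an unadjusted p under 0.05 and missed the threshold after adjustment: Klf1 at -1.36 (adjusted p = 0.0628), Zfpm1 at -1.18 (0.0648), Gata1 at -1.08 (0.0880), Gfi1b at -1.08 (0.0817), Tal1 at -0.97 (0.1004) and Bcl11a at -0.70 (0.0641). Ldb1 was at -0.27, Lyl1 at -0.17 and Nfe2 at 0.31. The median of the 10 was -1.02, against 0.00 over all tested genes, and 8 of them (all but Nfe2 and Bcl11a) had TBI+DEIX libraries wholly below TBI, as did 12.7% of tested genes. With each library divided by its FPKM sum (TPM scale), 6 of the 10 lay wholly below. The 12.7% is for FPKM, and the share of all tested genes on the TPM scale was not computed. The Epor call was lost without TBI replicate 3 (-1.05, adjusted p = 0.182), without TBI replicate 1 or 2 (0.0684 and 0.0613), with TBI+DEIX replicate 3 left out (0.132), on the TPM scale (0.0736), with no filter on low values (0.0759) and when only both compared groups were fitted (0.144). Leaving out TBI+DEIX replicate 1 gave 4 called genes (Epor, Zfpm1, Gfi1b and, in the other direction, Nfe2 at 0.49), in a fit that called 25.8% of all tested genes, and leaving out TBI+DEIX replicate 2 gave 3 (Epor, Klf1 and Bcl11a), where 8.70% of all genes were called. Array weights by the gene-by-gene method called 8, where 40.8% of all genes were called. Without TBI replicate 3 the share of all genes called was 0.0455%, and without TBI+DEIX replicate 3 it was 0.464%. Without TBI replicate 1, Bcl11a was called in place of Epor, in a fit that called 7.81% of all genes.

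DEIX against control addresses the compound without irradiation. None of the 10 was called by limma, against 7.24% of all tested genes, and 4 had an unadjusted p under 0.05. Those were Gfi1b at -0.97 (adjusted p = 0.125), Epor at -0.74 (0.190), Bcl11a at -0.51 (0.167) and Ldb1 at -0.38 (0.0897). Gata1 was at -0.72, Klf1 at -0.81, Zfpm1 at -0.68 and Tal1 at -0.13, each with an interval that included 0, and Nfe2 was at 0.34. DEIX replicate 2 was the highest of its group for 9 of the 10, all but Nfe2. Without that library 6 were called, all lower in DEIX, where 8.53% of all tested genes were called in the same fit: Gata1 at -1.20 (adjusted p = 0.0280), Klf1 at -1.32 (0.0341), Zfpm1 at -1.11 (0.0445), Gfi1b at -1.41 (0.0192), Ldb1 at -0.49 (0.0358) and Epor at -1.15 (0.0271), by limma. Nfe2 was the 1 gene with DEIX libraries wholly above control, as were 23.4% of tested genes, and Gfi1b, Bcl11a and Ldb1 lay wholly below, as did 17.2%. On the TPM scale Nfe2 overlapped control, and the share of all tested genes on that scale was not computed. The fit on both compared groups alone called 1, where 18.7% of all genes were called, and array weights by the gene-by-gene method called 8, where 41.0% were.

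TBI+DEIX against control compares mice that had both treatments with mice that had neither. Bcl11a fell by 0.69 on the log2 scale (SE 0.21, adjusted p = 0.0309 by limma), Ldb1 fell by 0.38 (SE 0.12, adjusted p = 0.0410) and Nfe2 rose by 0.50 (SE 0.17, adjusted p = 0.0405). These 3 of 10 called genes equal the share of all tested genes called, 30.0%. Epor was at -0.90 (adjusted p = 0.0578), Gfi1b at -0.94 (0.0685), Zfpm1 at -0.83 (0.105), Klf1 at -0.87 (0.132), Gata1 at -0.67 (0.189), Tal1 at -0.39 (0.421) and Lyl1 at -0.23 (0.104). The median of the 10 was -0.68, and 8 of them (all but Tal1 and Nfe2) had TBI+DEIX libraries wholly below control, as did 21.1% of tested genes, while 0 of the 10 lay wholly above control, as did 23.9%. No gene of the 10 was called without control replicate 1, control replicate 2 or TBI+DEIX replicate 3, or on the TPM scale, in fits that called 20.9%, 18.2%, 24.3% and 16.2% of all tested genes. Without control replicate 3, and with no filter on low values, 1 was called, where 20.1% and 21.0% of all genes were. Array weights by the gene-by-gene method called 8, where 56.3% of all genes were.

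Set against mice that had DEIX alone, TBI+DEIX mice showed estimates from -0.25 (Tal1) to 0.16 (Nfe2), and limma called 0 of the 10, with 0 at an unadjusted p under 0.05, against 2.57% of all tested genes called. For Gata1 the interval was -0.76 to 0.86 and for Epor -0.88 to 0.55, so differences up to those bounds are not excluded by these libraries. Lyl1 alone had TBI+DEIX libraries wholly below DEIX, at -0.18 on the log2 scale (adjusted p = 0.408), as did 8.96% of tested genes, and it did not on the TPM scale. The interaction is the change from TBI to TBI+DEIX minus the change from control to DEIX. Vehicle is stated for TBI mice but not for control, so an effect of dosing cannot be told apart in it. The interaction was not called for any of the 10 (0 with an unadjusted p under 0.05, 0.200% of all tested genes called). Its estimates ran from -0.83 for Tal1 (95% interval -1.90 to 0.23) to 0.11 for Ldb1, and that of Epor was -0.51 (-1.53 to 0.51).

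The regulators ranged more widely over the libraries than the median gene. The highest library was a median of 4.34 times the lowest over the 10 genes, from 1.45 to 5.76, against 1.88 over the tested genes never listed at 0. TBI replicate 3 was the highest of all 12 libraries for 8 of the 10. TBI+DEIX replicate 3 was the lowest for 5, DEIX replicate 1 for 3, TBI+DEIX replicate 2 for Lyl1 and control replicate 1 for Nfe2. The matching counts over all tested genes were not made. Across the 12 libraries the log2 values of Gata1 and Klf1 had a Pearson r of 0.99, those of Gata1 and Epor 0.97, and those of Gata1 and Gfi1b 0.97. Gata1 with Lyl1 had 0.37 and Gata1 with Nfe2 had -0.50. These values describe 12 libraries in 4 groups, which share their group and their depth, and carry no test.

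Over all 10994 tested genes, those with the profile most like that of Gata1 were Klf1 (r = 0.987), Zfpm1 (0.982), Fgfrl1 (0.978), Mllt3 (0.977) and Nipa1 (0.976). For Klf1 they were Epor (0.991), Klf16 (0.989), Gata1 (0.987), Nipa1 (0.978) and Zfpm1 (0.978). For Epor they were Klf1 (0.991), Glrx5 (0.990), Klf16 (0.983), Zfpm1 (0.981) and Pdia2 (0.980), over 12 libraries in each case. Glrx5 encodes a mitochondrial glutaredoxin needed for iron-sulphur clusters and haem synthesis. Of the 15 places in these lists, 7 were taken by other genes of the 10.

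Dividing each gene by Gata1 in the same library removes what scales both alike. The ratio of Klf1 to Gata1 stayed between 1.18 and 1.74 over the 12 libraries, that of Zfpm1 between 0.810 and 1.12, that of Gfi1b between 0.600 and 0.864, and that of Epor between 0.478 and 0.736. Each of these ranges spans at most 1.54-fold, while Gata1 itself spanned 5.05-fold. These genes and Tal1 were grouped with Gata1 because their values ran alike in these libraries, so narrow ratios follow from that choice. The ratio of Tal1 to Gata1 differed most between groups among these 5 genes, with ratios of 0.793, 0.673 and 0.596 in control, 0.917, 0.702 and 0.722 in TBI, 1.09, 0.977 and 1.09 in DEIX, and 0.830, 0.862 and 0.820 in TBI+DEIX. The DEIX ratios lay above those of every other group, by 0.62 on the log2 scale against control (exact two-sided permutation p = 0.1, which is the floor for 3 libraries against 3, and 0.281 after adjustment over 45 ratio comparisons). In TBI+DEIX the Tal1 ratios were also all above control and below DEIX, with differences of 0.29 and -0.32. The Epor and Gfi1b ratios were lower in TBI+DEIX than in control in all libraries, with differences of -0.28 and -0.30 on the log2 scale, and the Zfpm1 ratio was lower in TBI+DEIX than in DEIX, at -0.21 (exact permutation p = 0.1, adjusted 0.281 for each). Outside that group, the ratio of Nfe2 to Gata1 spanned 6.46-fold, that of Lyl1 4.88-fold, that of Ldb1 3.25-fold and that of Bcl11a 2.45-fold.

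**Figure D3:**
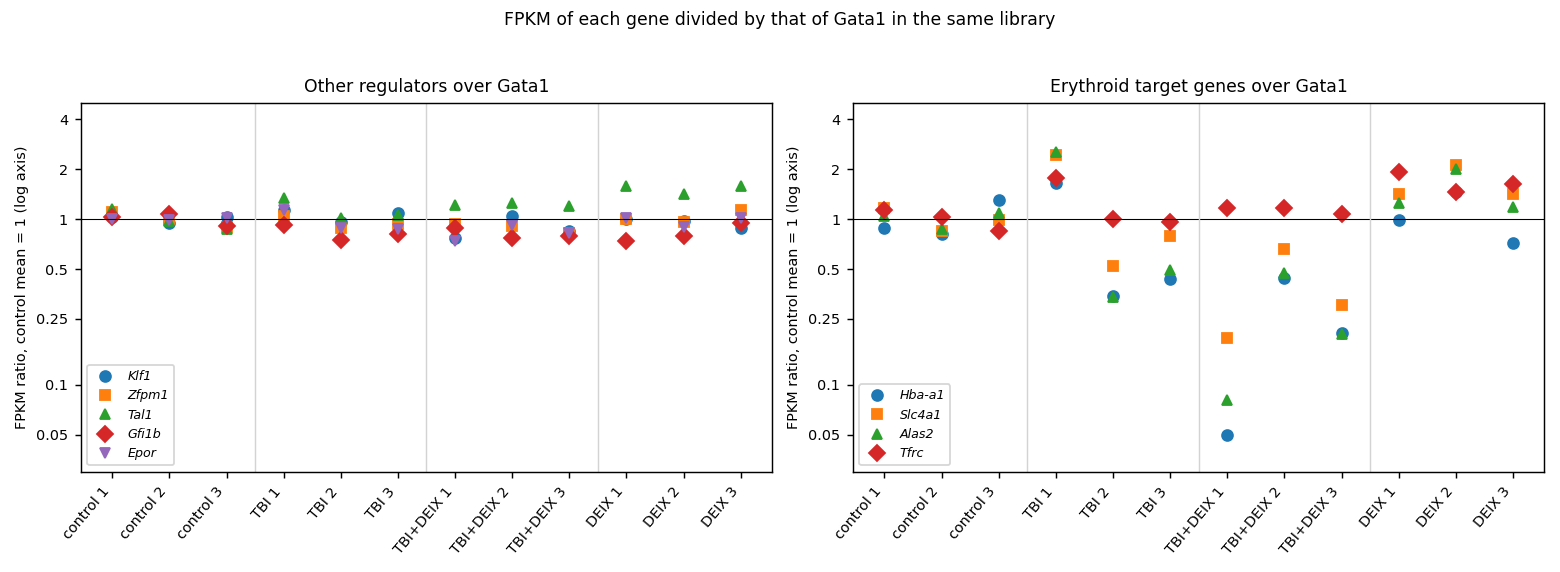
FPKM of 5 regulators (left) and 4 erythroid target genes (right) divided by Gata1 in the same library, with the control mean set to 1 on a logarithmic axis. The 5 regulators, which were grouped with Gata1 for their like profile in these libraries, stay close to 1, with Tal1 highest in DEIX. The Hba-a1 ratio spans 33.2-fold and is lowest in TBI+DEIX replicate 1.

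Genes that these factors are known to switch on ranged more widely than the factors. Over 29 measured erythroid target genes (Ahsp of the same list was not matched by symbol) the highest library was a median of 8.39 times the lowest, and up to 125 times. The alpha globin gene Hba-a1 was at 1880, 1792 and 3146 FPKM in control, 4074, 866 and 1922 in TBI, 867, 3898 and 708 in DEIX, and 75.4, 777 and 203 in TBI+DEIX. Its highest TBI library was replicate 1, not replicate 3 as for Gata1 and Klf1, and its lowest library was TBI+DEIX replicate 1, in which Gata1 was at 17.7 FPKM. Of the 29 target genes, 15 were highest in TBI replicate 1 and 9 in TBI replicate 3, and 14 were lowest in TBI+DEIX replicate 1. TBI+DEIX replicate 1 also had the lowest FPKM sum, 493683, and the lowest gene-by-gene array weight, 0.0709. How many of all tested genes were highest or lowest in these libraries was not counted. The ratio of Hba-a1 to Gata1 was 75.1, 69.4 and 112 in control, 142, 29.3 and 37.3 in TBI, 85.0, 125 and 61.3 in DEIX, and 4.27, 37.8 and 17.7 in TBI+DEIX. TBI+DEIX lay wholly below control and below DEIX with differences of -2.56 and -2.61 on the log2 scale (exact permutation p = 0.1, adjusted 0.281 for each), and overlapped TBI, where the difference was -1.92 (exact permutation p = 0.3). Alas2, the first enzyme of haem synthesis in red cells, and Slc4a1, the band 3 anion exchanger, had ratios to Gata1 that were lower in TBI+DEIX than in control, with differences of -2.33 and -1.56 on the log2 scale (exact permutation p = 0.1, adjusted 0.281 for each). For Tfrc, the transferrin receptor, the ratio was 0.19 higher and overlapped control (exact permutation p = 0.2). With DEIX alone the ratios of Tfrc, Slc4a1 and Alas2 to Gata1 all lay above control, with differences of 0.75, 0.71 and 0.53 (exact permutation p = 0.1, adjusted 0.281 for each), while that of Hba-a1 overlapped control, at 0.05.

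**Figure D4:**
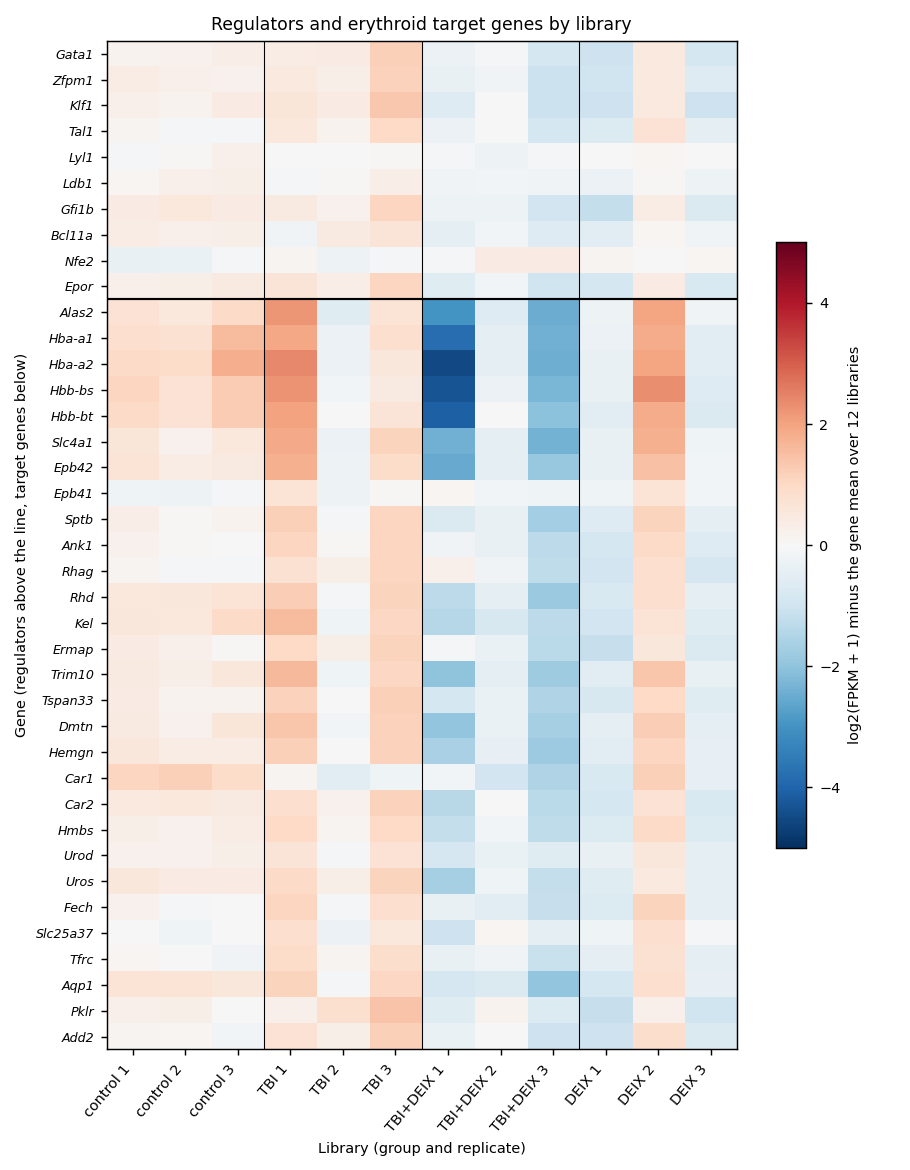
log2(FPKM + 1) of the 10 regulators (above the line) and 29 target genes (below) in each library, minus the mean of the gene over the 12 libraries, with red for higher and blue for lower. Of the 29 target genes, 14 are lowest in TBI+DEIX replicate 1 and 13 in TBI+DEIX replicate 3, and all 29 are higher in DEIX replicate 2 than in the other DEIX libraries.

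By limma, 0 of the 29 target genes were called in TBI against control (1 with an unadjusted p under 0.05) and 0 in DEIX against control (1). In TBI+DEIX against TBI, 11 fell and 0 rose, with a median of -1.70 over the 29, where 3.41% of all tested genes fell. Uros, an enzyme of haem synthesis, fell by 1.83 on the log2 scale (adjusted p = 0.0205), the erythroid nuclear protein gene Hemgn by 2.06 (0.0304), the Kell blood group gene Kel by 1.98 (0.0311) and the rhesus gene Rhd by 1.98 (0.0322), by limma. The others called were Slc4a1, Epb42, Trim10, Tspan33, Dmtn, Urod and Aqp1, between -2.64 and -1.03. Array weights by the gene-by-gene method called 13, where 40.8% of all genes were called, but not Slc4a1, whose estimate went to -1.40, Epb42 (-1.24), Trim10 (-1.15), Dmtn (-1.10) or Urod (-0.56). In TBI+DEIX against control, 17 fell and 0 rose, with a median of -1.49, where 13.1% of all tested genes fell. The 4 globin genes fell most, Hba-a1 by 3.26 (adjusted p = 0.0163), Hba-a2 by 3.70 (0.0175), Hbb-bs by 3.33 (0.0293) and Hbb-bt by 3.04 (0.0324). Near-identical globin copies share reads, so their split is uncertain. Car1 and Car2, the carbonic anhydrases of red cells, fell by 1.94 (adjusted p = 0.00917) and 1.41 (0.0388). The count of 11 came to 0 without TBI replicate 3, with TBI+DEIX replicate 3 left out or with only both compared groups fitted, to 1 without TBI replicate 1 or with no filter on low values, and was 20 when TBI+DEIX replicate 2 was left out. In the same order the share of all genes called was 0.0455%, 0.464%, 0%, 7.81%, 3.91% and 8.70%. The count of 17 was 5 to 7 without any 1 control library, 8 when TBI+DEIX replicate 1 was left out (38.5% of all genes called), 6 for TBI+DEIX replicate 3 (24.3%) and 10 with no filter (21.0%).

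In TBI+DEIX against control the 29 targets ran from -3.70 to 0.10 with a median of -1.49. The 10 regulators ran from -0.94 to 0.50 with a median of -0.68, with 1 called higher and 2 lower. In DEIX against control the medians were -0.41 for the targets and -0.59 for the regulators. The difference between targets and regulators was not tested. The interaction was not called for any of the 29 target genes (8 with an unadjusted p under 0.05), nor was TBI+DEIX against DEIX (13 with an unadjusted p under 0.05), by limma.

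For the lists that follow, the share of all tested genes that rose and fell was 0.891% and 3.10% in TBI against control, 4.69% and 3.41% in TBI+DEIX against TBI, 4.52% and 2.72% in DEIX against control, and 16.9% and 13.1% in TBI+DEIX against control. Among 27 partners and cofactors of these factors, Myb, a progenitor factor, was lower in every irradiated or DEIX-treated library than in control. It was at 81.1, 77.2 and 78.4 FPKM in control, 39.4, 46.1 and 52.5 in TBI, 43.5, 46.2 and 47.9 in DEIX, and 42.2, 36.8 and 31.3 in TBI+DEIX. Against control it fell by 0.77 in TBI (adjusted p = 0.00643), by 0.77 in DEIX (0.00753) and by 1.09 in TBI+DEIX (0.000299), on the log2 scale by limma. The TBI call for Myb was lost on both TPM scales, with an adjusted p of up to 0.143, as was the DEIX call, with up to 0.0582. Lmo2, which links GATA1 with TAL1, was at 101, 106 and 116 FPKM in control, 109, 92.1 and 105 in TBI, 78.5, 94.7 and 77.6 in DEIX, and 55.5, 75.8 and 76.0 in TBI+DEIX. Its TBI+DEIX libraries lay below all control and TBI libraries, at -0.65 against control (adjusted p = 0.00613) and -0.57 against TBI (0.0354), by limma. Gata2, the GATA factor of earlier progenitors, was not called in any comparison and was lowest in TBI replicate 1, at 2.69 FPKM against 7.12 to 11.9 in the other libraries.

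Of the 27 partners, 2 rose in TBI+DEIX against TBI, Bach1 by 0.49 and Spi1 by 0.68, and 3 fell, Lmo2, Ssbp2 by 0.50 and Ssbp3 by 0.71. BACH1 is a haem-regulated repressor, SPI1 (PU.1) directs myeloid cells and opposes GATA1, and SSBP2 and SSBP3 stabilise LDB1. Spi1 had the highest mean of the 27, followed by Lmo4 and Ikzf1. It was at 151, 159 and 184 FPKM in control, 196, 162 and 151 in TBI, 268, 204 and 215 in DEIX, and 215, 284 and 323 in TBI+DEIX, so both DEIX-treated groups lay wholly above control and TBI. In DEIX against control 2 rose (Mafg by 0.50, Bach1 by 0.58) and 2 fell (Myb and Tcf3, the latter by 0.98). In TBI+DEIX against control 6 rose (Mafg, Bach1, Ikzf1, Zbtb7a, Spi1 and, just inside the threshold, Rcor1) and 5 fell (Lmo2, Tcf3, Cbfa2t3, Ssbp2 and Myb). MAFG is a small MAF protein that pairs with NFE2 and with BACH1, and TCF3 is the E protein that pairs with TAL1. Mafg rose there by 0.63 (adjusted p = 0.00157) and Tcf3 fell by 0.87 (0.0145), by limma. On the TPM scale the calls of Mafg (adjusted p = 0.079), Ikzf1, Zbtb7a, Rcor1 and Ssbp2 were lost, leaving 6 of the 11, where 16.2% of all genes were called, and array weights by the gene-by-gene method gave 18, where 56.3% were. The median of the 27 was -0.08 in that comparison. The count of 5 in TBI+DEIX against TBI came to 0 without TBI replicate 3, with TBI+DEIX replicate 3 left out, on the TPM scale or with only both compared groups fitted, to 2 without TBI replicate 2 or with no filter on low values, to 3 when TBI+DEIX replicate 2 was left out, and to 9 when TBI+DEIX replicate 1 was, in fits that called from 0% (only both compared groups) to 25.8% (without TBI+DEIX replicate 1) of all genes. The 4 calls in DEIX against control came to 1 or 2 without any 1 control library, without DEIX replicate 1 or without DEIX replicate 3, and to 0 on the TPM scale, where 2.57% of all genes were called.

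Genes linked to Epo receptor signalling were taken from a list of 17, all tested, which also holds the separate receptor gene Kit. The values are from whole marrow, so the cells in which these genes changed are not known. Activity of the Epo receptor was not measured. Socs3, a feedback inhibitor of cytokine receptors, was at 4.65, 6.16 and 6.49 FPKM in control, 5.67, 4.75 and 4.02 in TBI, 22.3, 14.8 and 12.9 in DEIX, and 28.8, 18.1 and 19.8 in TBI+DEIX. Both DEIX-treated groups lay far above control and TBI. It rose by 1.98 on the log2 scale in TBI+DEIX against TBI (SE 0.22, adjusted p = 0.00411), by 1.36 in DEIX against control (0.00753) and by 1.76 in TBI+DEIX against control (0.00041), by limma. Pim1, a survival kinase induced by STAT5, was at 50.2, 51.9 and 59.2 FPKM in control, 70.0, 52.0 and 56.4 in TBI, 153, 113 and 84.2 in DEIX, and 220, 92.8 and 119 in TBI+DEIX. Its rises were 1.18 (adjusted p = 0.0353), 1.07 (0.0493) and 1.31 (0.00676) in the same comparisons, and the DEIX call was lost in 12 of 16 alternatives. Lyn, a Src-family kinase, rose by 0.73 (adjusted p = 0.0160), 0.56 (0.0242) and 0.65 (0.00308), from 86.9 to 111 FPKM in the control and TBI libraries to 132 to 174 in the DEIX-treated ones.

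**Figure D5:**
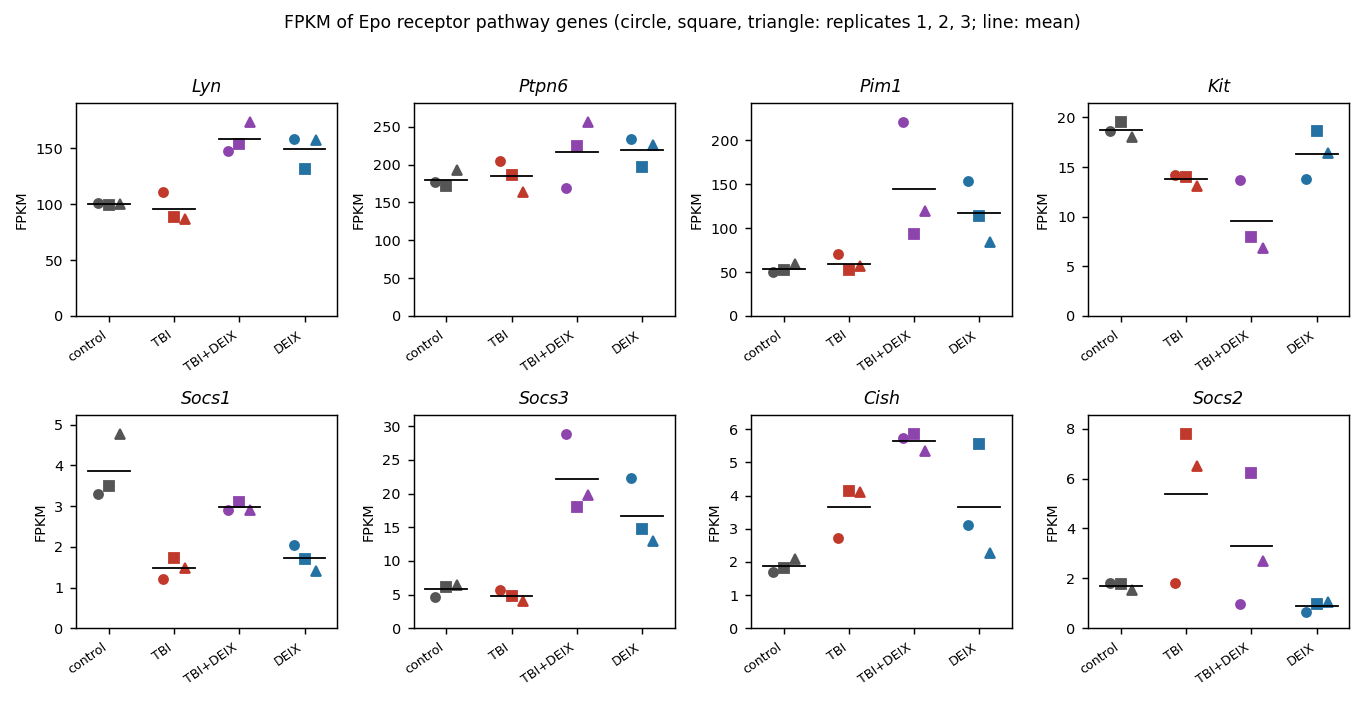
FPKM in whole marrow of 8 genes from the list of Epo receptor signalling (vertical axis, from 0) by group, with circle, square and triangle for replicates 1 to 3 and a line for the group mean. Socs3, Lyn and Pim1 lie higher in both DEIX-treated groups than in control and TBI, and Socs1 is lowest in TBI and DEIX.

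Socs1, a related inhibitor, was at 3.30, 3.49 and 4.76 FPKM in control, 1.22, 1.72 and 1.47 in TBI, 2.05, 1.70 and 1.42 in DEIX, and 2.90, 3.11 and 2.89 in TBI+DEIX. It fell by 0.97 with TBI and by 0.83 with DEIX alone against control (adjusted p = 0.00321 and 0.00819 by limma), and rose by 0.69 in TBI+DEIX against TBI (0.0203). Kit, the stem cell factor receptor of early erythroid progenitors, was at 18.7, 19.5 and 18.1 FPKM in control and 13.7, 7.94 and 6.89 in TBI+DEIX, a fall of 0.96 (adjusted p = 0.00448). Cish, a STAT5 target, rose by 1.21 in TBI+DEIX against control (adjusted p = 0.00255), from 1.70, 1.83 and 2.10 FPKM to 5.74, 5.85 and 5.34. Ptpn6, the phosphatase that switches the receptor off, had the highest mean of the 17 and was not called in any comparison. The kinase Jak2 and the factors Stat5a and Stat5b were not called either. In all, 1 of the 17 fell and 0 rose in TBI against control, 4 rose and 0 fell in TBI+DEIX against TBI, 3 rose and 1 fell in DEIX against control, and 4 rose and 1 fell in TBI+DEIX against control. The 4 calls in TBI+DEIX against TBI came to 1 without TBI replicate 3, with TBI+DEIX replicate 3 left out or on the TPM scale, to 0 with only both compared groups fitted, and to 7 without TBI+DEIX replicate 1, with the same range of shares of all genes called. The 4 calls in DEIX against control came to 2 without any 1 control library, without DEIX replicate 1 or 3, on the TPM scale or with a mean FPKM of at least 5, and the 5 in TBI+DEIX against control came to 10 without TBI+DEIX replicate 1, where 38.5% of all genes were called.

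Markers of other cells that express some of these regulators also moved between the groups. The summed FPKM of 16 megakaryocyte and platelet genes was 153 to 226 in control, 58.7 to 90.6 in TBI, 86.1 to 149 in DEIX, and 70.7 to 82.6 in TBI+DEIX, and 6 of the 15 tested fell in TBI against control, 1 in TBI+DEIX against TBI and 11 in TBI+DEIX against control. Of 12 mast cell, basophil and eosinophil genes the sum was 460 to 531, 158 to 340, 295 to 427 and 169 to 404 in the same order of groups, and of 9 tested, 0 were called in TBI against control or in TBI+DEIX against TBI, while 1 fell in DEIX against control and 2 fell in TBI+DEIX against control. For 14 B lineage genes the sum was 480 to 579 in control, 33.7 to 399 in TBI, 78.0 to 119 in DEIX, and 9.31 to 196 in TBI+DEIX, and 1 of the 14 was listed at 0 in a library. The sum of 9 plasmacytoid dendritic cell genes was 458 to 540, 146 to 177, 192 to 224 and 43.7 to 126, and all 9 fell in TBI+DEIX against control, as did 12 of the 14 B lineage genes. In TBI against control, where Bcl11a was at 0.01, 4 genes of each of these 2 lists fell, in DEIX against control 4 B lineage and 2 dendritic cell genes fell, and in TBI+DEIX against TBI it was 0 and 3. The sum of 11 neutrophil genes, without the 3 that were listed at 0 in places, was 24300 to 34100, 27200 to 35100, 28900 to 41000 and 24400 to 53800, beside the rise of Nfe2. The sum of 12 stem and progenitor genes was 94.4 to 101, 44.1 to 57.6, 76.3 to 115 and 59.9 to 262, the last value with Ly6a at 221.4 FPKM in TBI+DEIX replicate 3. Without Ly6a the other 11 genes summed to 61.4 to 61.8 in control, 31.5 to 43.4 in TBI, 63.4 to 65.4 in DEIX, and 32.9 to 55.1 in TBI+DEIX, and 4 of the 8 tested genes of this list fell and 0 rose in TBI+DEIX against control. The part of these cells in the results for the 10 regulators was not tested.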

How the data were processed

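RNA from whole bone marrow was sequenced in 12 libraries made with a directional mRNA kit, per the labels' protocols. The authors deposited 1 table of FPKM values per gene and library. The submitters' processing notes name STAR 2.6, Cufflinks 2.2.1 and the mm10 build, and the annotation is not given in the sources used here. All 21853 identifiers matched GENCODE vM21, which supplied symbols and positions. No counts were used, so depth is unknown and no count model was run.

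Tests used log2(FPKM + 1), which understates the changes of low genes. limma 3.58.1 in R 4.3.3 (lmFit, eBayes with trend) was fitted over all 12 libraries as 4 group means, leaving 8 residual degrees of freedom, with 6 contrasts and Benjamini-Hochberg adjustment over 10994 genes. The script was tested on simulated data. Ratios to Gata1 were compared by exact permutation of libraries. Alternatives were another pseudocount, other filters, TPM and median-of-ratios scaling, array weights, the compared groups alone, a replicate block and leaving out each library. A TPM scale whose sum leaves out S100a8, S100a9 and Ngp, and array weights by the gene-by-gene method, were chosen after seeing the data.

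The 10 genes and all lists were chosen with earlier results of these data known. All 10 are named, and 2 genes of the lists are not reported here. From the lists of partners, Epo receptor signalling and target genes, the 3 genes with the highest mean and every called gene could be named, and for Gata1, Klf1 and Epor the 5 genes with the highest Pearson r. Gata2, Jak2, Stat5a and Stat5b were named after their values were seen. Nothing in the labels says that libraries of a group came from separate mice, so p-values measure the spread between these libraries.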

Additional observations from a re-analysis of the deposited data

Results flagged for a closer look

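Socs1, a feedback inhibitor of cytokine receptors in the list of Epo receptor signalling genes, had a called interaction. Its change from TBI to TBI+DEIX differed from its change from control to DEIX. Vehicle is stated for TBI mice but not for control, so a different response to DEIX and an effect of dosing cannot be told apart. The interaction was 1.52 on the log2(FPKM + 1) scale (SE 0.20, 95% interval 1.09 to 1.95, adjusted p = 0.0142 by limma). DEIX against control was -0.83, with every DEIX library (1.42 to 2.05 FPKM) below every control library (3.30 to 4.76 FPKM). TBI+DEIX against TBI was 0.69, with every TBI+DEIX library (2.89 to 3.11 FPKM) above every TBI library (1.22 to 1.72 FPKM). The interaction stayed past the threshold in all 20 alternatives in which Socs1 was tested, between 1.34 and 2.09, with adjusted p between 0.000231 and 0.0494. The mean of Socs1 was too low for the filter that asks for a mean FPKM of at least 5. None of the 10 erythroid regulators had a called interaction.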

How the results depend on the processing

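Counts of called regulators among the 10 depended on the setting. In TBI against control the count of 0 became 3 with array weights and stayed at 0 in the 15 other alternatives. In TBI+DEIX against TBI the count of 1 became 0 with no filter, on the TPM scale, with the compared groups alone and with the replicate block, 9 with array weights (8 by the gene-by-gene method), and 0 to 4 with 1 library left out. In DEIX against control the count of 0 became 8 with array weights by either method, 1 with the compared groups alone, and 0 to 6 with 1 library left out, the 6 without DEIX replicate 2. For TBI+DEIX against control the count of 3 became 1 with no filter, 0 on the TPM scale, 8 with array weights by either method, and 0 to 3 with 1 library left out. TBI+DEIX against DEIX and the interaction gave 0 in all alternatives. Array weights called 5249 to 7017 of all 10994 genes in the first 4 comparisons with weights from 0.0498 to 97.5, and that estimation stopped before convergence. The gene-by-gene method gave no warning, with weights from 0.0709 to 11, and called 4218 to 6187. Estimates that changed sign had not been called. Gfi1b in TBI against control (0.14) was -0.23 with array weights, -0.12 by the gene-by-gene method and -0.12 to 0.33 with 1 library left out. Bcl11a there (0.01) was -0.01 with median-of-ratios scaling and -0.15 to 0.24, and Lyl1 (-0.06) was -0.12 to 0.03. In DEIX against control Tal1 (-0.13) was -0.57 to 0.12 and Lyl1 (-0.05) was -0.12 to 0.04. The cause of these changes was not tested. Same-numbered libraries of different groups did not deviate together: over 18 pairs the correlation of their deviations ran from -0.447 to 0.242 with a median of -0.066, and 3 pairs were over 0.1. The replicate block left 0 of the regulators called in TBI+DEIX against TBI (Epor at -1.25, adjusted p = 0.0619 by limma) and 2 in TBI+DEIX against control, and in TBI+DEIX against TBI it took the called partners from 5 to 1 and the called target genes from 11 to 1. With that block the share of all genes called went from 8.10% to 4.31% in TBI+DEIX against TBI, and from 30.0% to 27.3% in TBI+DEIX against control. The TPM scale moved the median change of all genes by -0.13 in TBI+DEIX against TBI, by -0.15 in DEIX against control and by -0.12 in TBI+DEIX against control. The share of calls that were higher was then 34.4% against 57.9% on FPKM, 19.1% against 62.4% and 30.6% against 56.2%, and 9.49% against 22.3% in TBI against control. Without the 3 neutrophil genes in the sum it was 29.9%, 49.0% and 38.5% in the first 3 of these comparisons.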
